A study of Mus musculus with 10 samples.

Results

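Axon guidance ligands and receptors are described here in mouse brain tissue labelled dDG DGC layer, read here as the layer of granule cells in dorsal dentate gyrus, within the hippocampus. The genes were taken by symbol, with no measured value in the choice: class 3 to 7 semaphorins, plexins, neuropilins, Slits, Robos, Eph receptors, ephrins, netrins, netrin-Gs, Unc5 receptors, Dcc and Neo1. This gave 72 of the 49315 genes in the count table, 20 semaphorins, 9 plexins, 2 neuropilins, 3 Slits, 4 Robos, 14 Eph receptors, 8 ephrins, 6 netrins and netrin-Gs, and 6 netrin receptors. The study had 2 groups of poly(A) RNA libraries from male C57 BL/6 mice in a self-administration experiment, 5 with cocaine and 5 with saline. Nothing in the labels says that the libraries of a group came from separate mice, so p-values measure only the spread between these libraries, which may be technical. Both groups share strain, sex and tissue. Sources used here give no age, dose, schedule or time from the last session to dissection. The tissue is a dissected layer and not sorted cells, so each library can hold RNA of neighbouring cell types, and fewer cells of a type cannot be told apart from less RNA per cell.

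Axon guidance genes code for cues and for the receptors that read them on growing axons, dendrites and migrating cells. Semaphorins bind plexins, and most secreted class 3 semaphorins need a neuropilin as co-receptor. Slits bind Robos, ephrins bind Eph receptor kinases, and netrins bind Dcc, neogenin (Neo1) and Unc5 receptors, while the membrane-anchored netrin-Gs bind the postsynaptic Lrrc4 family. In the dentate gyrus these systems are known for laying out the mossy fibres, the axons of granule cells, and for setting the number of dendritic spines and synapses of granule cells.

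Total counts ran from 34991548 to 46481533 per library. The 8 granule cell markers, Prox1 among them, were present in every library, at a summed level of 1546 to 2846 CPM with cocaine and 2045 to 2890 CPM with saline. All 8 had a log2 fold change below 0 (median −0.14), with 0 at an unadjusted p below 0.05. CPM is the unit of counts scaled to library size, here with TMM factors. Cocaine replicate 5 stood apart on the first principal component (45.1, with the other libraries between −23.1 and 16.5). It had the lowest granule cell sum and the highest choroid plexus sum (3605 CPM, with 61.1 to 2156 CPM elsewhere). Markers of choroid plexus were also high in cocaine replicate 1 (2156 CPM) and saline replicate 3 (1391 CPM), so values without those 3 libraries are given for the genes described singly whose log2 fold change, if beyond 0.1, then moved by over 1.5 times or turned.

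In the comparison of cocaine with saline, no axon guidance gene passed the threshold, an adjusted p of 0.05 in edgeR's quasi-likelihood test over all 17080 genes tested. Of the 72 genes 71 were tested, 0 were called, and the background was 0% of all genes (0 called, smallest adjusted p 0.504). The smallest adjusted p among the axon guidance genes was also 0.504. At an unadjusted p below 0.05, 2 were higher with cocaine (Plxnb3 and Robo3) and 5 lower (Sema3c, Sema5a, Epha3, Epha4 and Dcc). That is 9.86% of the 71, near the 8.91% of all genes tested, which had 5.58% higher and 3.33% lower. In no axon guidance gene were the groups free of overlap, against 1.38% of all genes.

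The fold changes of the 71 genes tested were small. A log2 fold change above 0 was found for 31 of the 71 genes, against 53.6% of all genes, and the median was −0.05 against 0.02. A difference beyond 0.5 on the log2 scale was found for Plxnb3, Sema3f and Sema3b. Receptors were above 0 in 11 of 34 (median −0.12) and ligands in 20 of 37 (median 0.02), a contrast that was not tested. Granule cell markers lay below 0 as well (8 of 8, median −0.14), and their part in the receptor values was not tested. At least 4 of the 5 cocaine libraries lay below every saline library for 8 genes, namely Sema3c, Sema5a, Sema6b, Sema7a, Plxna2, Robo2, Epha2 and Epha3, against 5.65% of all genes. They lay above every saline library for Plxna3 and Robo3, against 5.94% of all genes. Both counts take the cocaine side only. They leave out Dcc, with 4 saline libraries above every cocaine library, and Plxnb3, Efnb3 and Sema3b, with 4 below every one. No share over all genes was taken for the saline side.

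The count at an unadjusted p below 0.05 depended on single libraries and on the tool. It was 19 without cocaine replicate 2 (4 higher and 15 lower, with 13.5% of all genes), 3 without saline replicate 1 (5.43%), 11 without saline replicate 2 (9.36%), 11 without saline replicate 3 (8.29%), 12 without saline replicate 4 (8.46%) and 4 without saline replicate 5 (5.56%). It was 9 of 71 without cocaine replicate 5 (13.8% of all genes), 13 of 72 with no low-count filter (7.75%) and 17 of 71 with limma voom and sample weights (17% of all genes). The counts when leaving out libraries are also of 71 genes. As a share of these, the count was above that of all genes without cocaine replicate 2 or saline replicate 2, 3 or 4. The same held with no low-count filter and with voom. It was near or below that share without cocaine replicate 5 or saline replicate 1 or 5. These fits reuse the same libraries, and the difference was not tested. DESeq2 called 0.054% of all genes after adjustment, voom 0.556% and edgeR without cocaine replicate 5 0.747%, and none of them called an axon guidance gene. Without the 3 libraries highest in choroid plexus markers the count was 6 (10.5% of all genes), and 8 genes had groups free of overlap, against 10.7% of all genes with 3 cocaine and 4 saline libraries. Without cocaine replicate 2, Sema3c, Sema5a, Plxna2, Robo2 and Epha3 had groups free of overlap, against 4.99% of all genes.

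**Figure D1:**
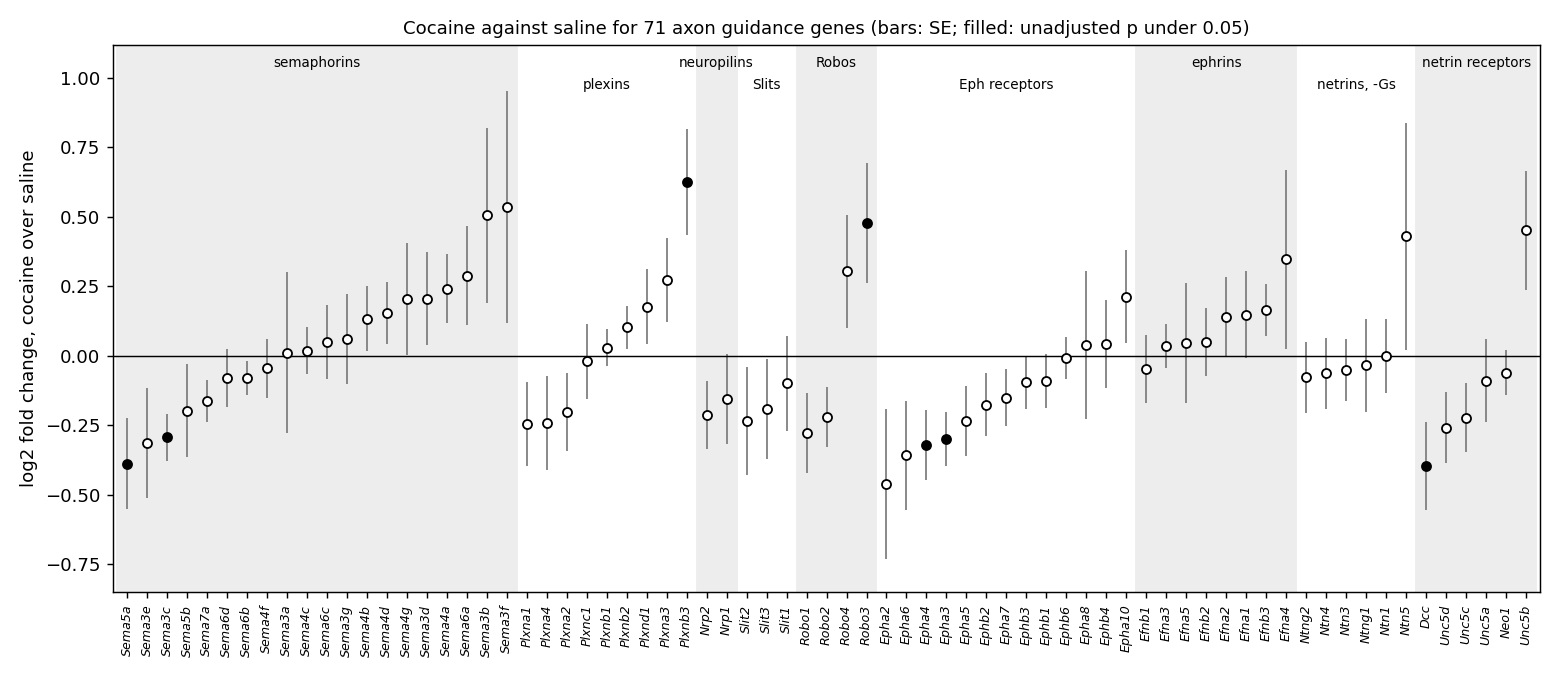
Log2 fold change of cocaine over saline for the 71 axon guidance genes tested, ordered within each family, with bars for the standard error and filled points for an unadjusted edgeR p under 0.05. Most points lie within 0.4 of 0, the 5 filled points below 0 are Sema5a, Sema3c, Epha4, Epha3 and Dcc, and the 2 above are Plxnb3 and Robo3.

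The promoters of the 2 genes with the smallest p in each direction are shown, since the series title concerns DNA methylation, which in mammals falls mainly on CG dinucleotides. Each runs from 250 bases before to 50 after the start listed by RefSeq (GRCm38.p6), 5′ to 3′ on the gene's strand, with CG in capitals. Gene coordinates given below come from GENCODE M21, whose starts can differ. There Sema3c starts at 17574281, so its whole window lies inside the gene. The starts of Plxnb3 and Robo3 differ as well. Sema3c is at chr5:17574566-17574865 (+), Epha3 at chr16:63864126-63864425 (−), Plxnb3 at chrX:73756853-73757152 (+) and Robo3 at chr9:37433126-37433425 (−).
Sema3c: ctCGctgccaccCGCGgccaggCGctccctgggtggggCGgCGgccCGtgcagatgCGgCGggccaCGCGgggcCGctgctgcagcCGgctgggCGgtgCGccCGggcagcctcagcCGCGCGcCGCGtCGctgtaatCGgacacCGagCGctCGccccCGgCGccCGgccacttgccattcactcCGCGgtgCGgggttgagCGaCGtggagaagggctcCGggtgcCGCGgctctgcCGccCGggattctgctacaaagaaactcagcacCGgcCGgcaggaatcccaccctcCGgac
Epha3: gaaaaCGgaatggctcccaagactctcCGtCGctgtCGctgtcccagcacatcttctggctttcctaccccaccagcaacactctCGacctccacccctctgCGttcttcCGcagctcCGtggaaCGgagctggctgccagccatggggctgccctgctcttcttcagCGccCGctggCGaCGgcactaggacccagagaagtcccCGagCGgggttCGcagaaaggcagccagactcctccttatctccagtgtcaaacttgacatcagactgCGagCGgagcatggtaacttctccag
Plxnb3: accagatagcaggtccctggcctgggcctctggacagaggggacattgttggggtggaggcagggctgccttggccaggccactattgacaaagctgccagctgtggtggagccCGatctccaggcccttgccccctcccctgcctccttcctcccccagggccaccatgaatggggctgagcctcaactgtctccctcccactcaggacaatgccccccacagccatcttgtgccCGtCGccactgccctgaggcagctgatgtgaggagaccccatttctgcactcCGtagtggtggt
Robo3: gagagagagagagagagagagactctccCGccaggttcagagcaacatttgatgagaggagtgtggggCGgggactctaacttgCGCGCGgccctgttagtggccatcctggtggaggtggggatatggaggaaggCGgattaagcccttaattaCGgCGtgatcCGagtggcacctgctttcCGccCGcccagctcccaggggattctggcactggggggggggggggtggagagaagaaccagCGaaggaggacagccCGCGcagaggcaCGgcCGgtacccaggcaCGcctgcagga
The Sema3c promoter holds 42 CG, more than 97.0% of all 32851 promoters in the table, and Epha3 holds 18, Robo3 17 and Plxnb3 4. Promoters were listed for 62 of the 72 axon guidance genes, 78 in all, with a median of 19.5 CG against 7 over all promoters. The full list covers 27025 genes and was not limited to the genes tested here, so the 2 sets are unlike. CG occurs in 94.6% of all promoters. TGACG, a cyclic AMP response half-site searched on both strands, is in 10 of the 78 and in 20.8% of all promoters, and in none of the 4 shown. No methylation value enters this comparison.

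Levels between genes are compared as CPM per kb of exon, since longer transcripts yield more counts. The range over the 71 genes ran from 0.159 for Sema3a to 71.7 for Sema7a. Sema7a, a membrane-anchored semaphorin that binds plexin C1 and integrins, stood at 71.7 ± 6.60 CPM per kb (SD over 10 libraries). The ephrin receptor Epha4 stood at 70.7 ± 13.5, so the order of these 2 lies within their spread. Next came the transmembrane ephrin Efnb3 at 55.1 ± 6.82, the secreted repellent Slit1 at 51.0 ± 10.1, the netrin receptor Unc5a at 44.3 ± 8.04, Epha7 at 41.6 ± 5.10 and the transmembrane semaphorin Sema6b at 40.7 ± 1.89. The ranges over libraries of Efnb3 and Slit1, of Slit1 and Unc5a, of Unc5a and Epha7, and of Epha7 and Sema6b overlapped.

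Partners of one system stood at unlike levels per kb. The secreted netrin Ntn1 had 1.30 ± 0.172 CPM per kb, below each of its 6 receptors, of which Dcc was the lowest at 2.20 ± 0.527 and Unc5a the highest. Among Slits, Slit1 stood at 51.0 and Slit2 at 1.204, while the Robos lay between 1.03 (Robo4) and 8.29 (Robo3). Class 3 semaphorins, most of which need a neuropilin, lay between 0.159 (Sema3a) and 5.60 (Sema3c), and the neuropilins Nrp1 and Nrp2 at 6.95 and 9.49. Among plexins, the semaphorin receptors, Plxna4 was highest at 26.9 ± 5.75. With the longest transcript as length, the highest member changed in 3 of 9 families, to Nrp1, Robo2 and Ntng2. The order of the highest genes changed too: Epha4 (89.9) stood above Sema7a (71.7), and Epha7 (60.9) above Efnb3 (55.1) and Slit1 (53.2).

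**Figure D2:**
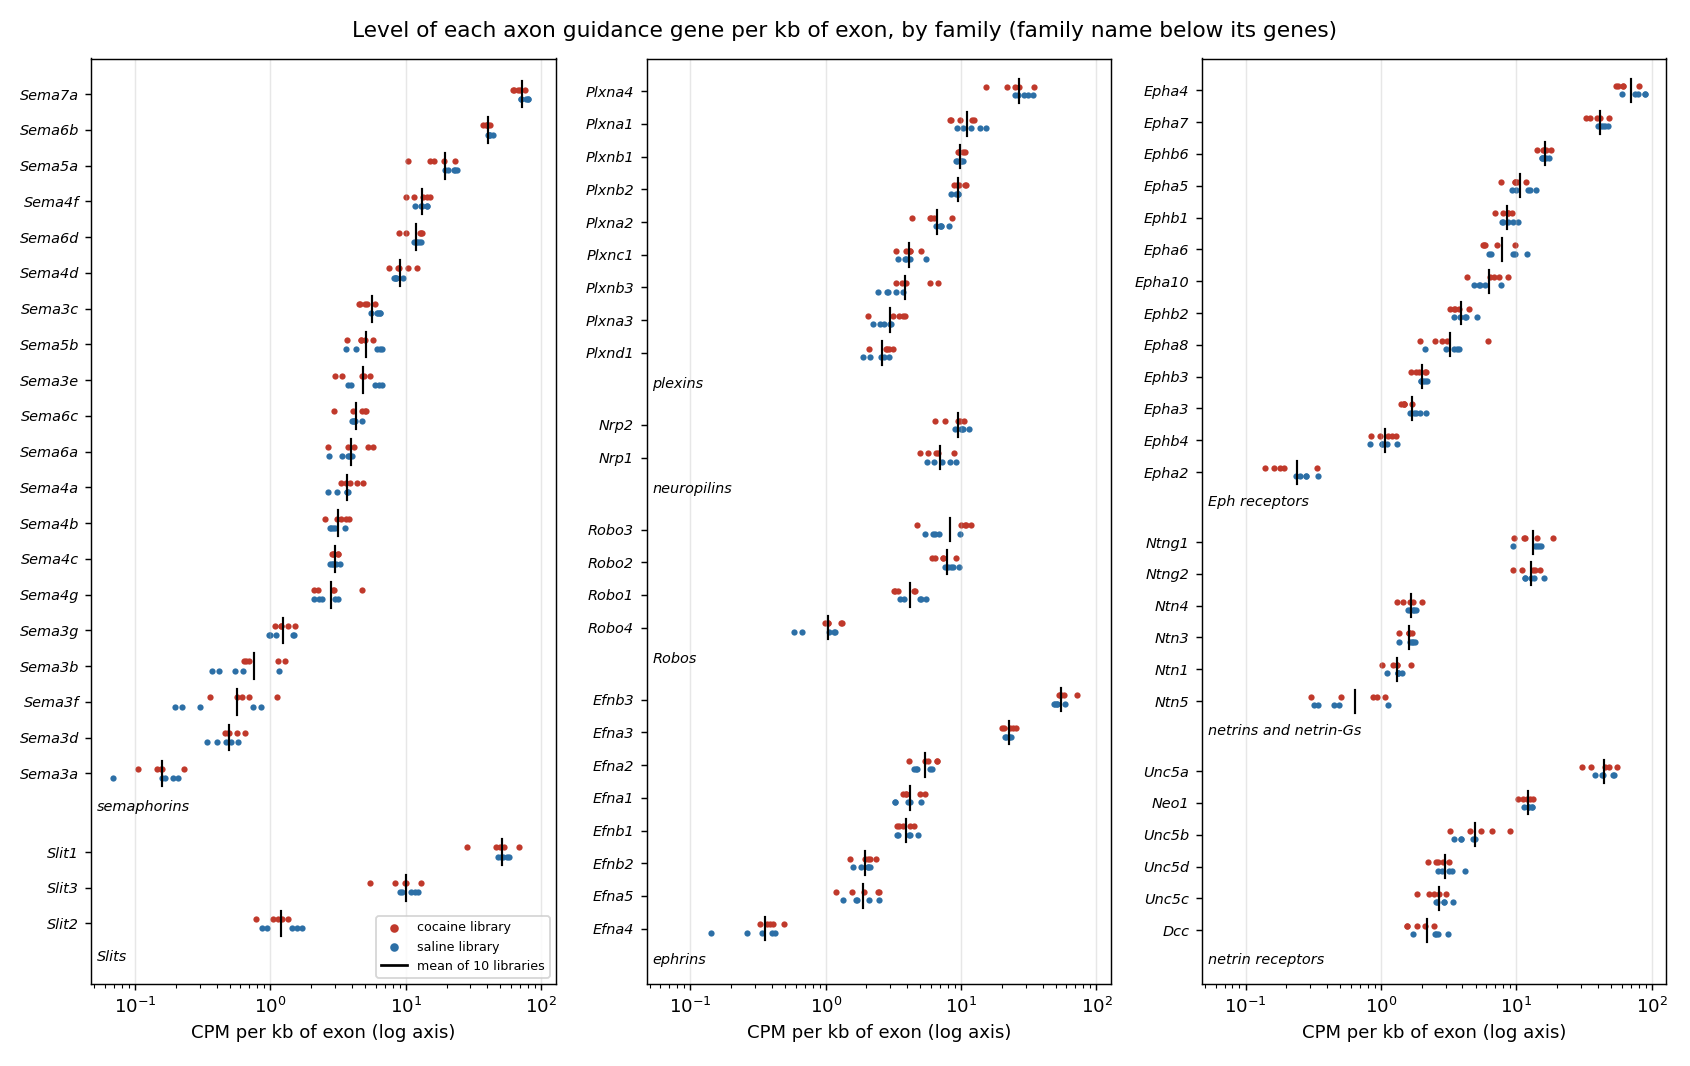
Level of each tested axon guidance gene in CPM per kb of exon on a log axis, 1 point per library (red cocaine, blue saline) and a black tick at the mean of 10 libraries, grouped by family. Sema7a, Epha4, Efnb3, Slit1, Unc5a, Epha7 and Sema6b lie highest, and red and blue points overlap in every row.

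Among the 20 semaphorins, 12 had a log2 fold change above 0 (median 0.03), and 0 were higher and 2 lower at an unadjusted p below 0.05. Sema3c, a secreted class 3 semaphorin that signals through neuropilins, lies on chromosome 5 from 17574281 to 17730268 (mm10, GENCODE M21). The values were 32.3, 41.98, 32.5, 35.9 and 37.1 CPM in cocaine replicates 1 to 5 and 46.01, 46.1, 39.8, 43.7 and 44.7 CPM in saline replicates 1 to 5. All cocaine libraries but replicate 2 lay below every saline library. The means were 35.9 ± 3.97 CPM (cocaine) and 44.1 ± 2.60 CPM (saline; SD, n = 5), with log2 fold change −0.29 (SE 0.09, edgeR adjusted p 0.504).

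Sema5a, a transmembrane semaphorin that is known to limit excitatory synapses on granule cells through plexin A2, lies on chromosome 15 from 32244810 to 32696341. The values were 283, 431, 299, 359 and 194 CPM in cocaine replicates 1 to 5 and 445, 384, 362, 432 and 427 CPM in saline replicates 1 to 5. Cocaine replicate 5 was lowest of all 10 libraries, and cocaine replicate 2 lay within the saline range. The means were 313 ± 88.4 and 410.1 ± 35.1 CPM (SD, n = 5), with log2 fold change −0.39 (SE 0.16, edgeR adjusted p 0.536). The fold change was −0.26 without cocaine replicate 5 and −0.22 without the 3 libraries highest in choroid plexus markers. Its level is given beside the summed granule cell markers: cocaine replicate 5, with the lowest sum (1546 CPM), had 194 CPM, and saline replicate 4 and cocaine replicate 2, with the highest sums (2890 and 2846 CPM), had 432 and 431 CPM. The order was not strict, since cocaine replicate 4 (sum 2533 CPM) had 359 CPM and saline replicate 3 (sum 2045 CPM) had 362 CPM. The part of granule cell content in the difference was not tested.

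Sema7a had 203, 231, 252, 207 and 221 CPM in cocaine replicates 1 to 5 and 254, 235, 233, 265 and 263 CPM in saline replicates 1 to 5. All cocaine libraries but replicate 3 lay below every saline library, with log2 fold change −0.16 (SE 0.08, edgeR adjusted p 0.564). Sema6b had the smallest spread of all 71 genes, a coefficient of variation of 4.64% over 10 libraries, at 157 ± 7.05 and 166 ± 5.35 CPM (SD, n = 5). Sema3f, a secreted ligand of neuropilin 2 known for pruning mossy fibre branches, had the largest coefficient of variation, 52.5%. It ran from 1.87 to 5.80 CPM with cocaine and from 1.03 to 4.41 CPM with saline, so its log2 fold change of 0.54 (SE 0.42) lay within a wide overlap. It was 0.28 without cocaine replicate 1, 0.34 without saline replicate 5 and 0.88 without saline replicate 3. Sema3a, a classic repellent of the same class, stood at 2.21 ± 0.616 and 2.19 ± 0.754 CPM (SD, n = 5) and rested on 44 to 121 counts per library. Sema6a, a transmembrane ligand that guides mossy fibres to their layer, stood at 37.8 ± 10.6 CPM in cocaine against 30.9 ± 4.62 CPM in saline libraries (log2 fold change 0.29, SE 0.18), and its highest libraries were cocaine replicates 4 and 1 at 50.2 and 46.03 CPM. Without cocaine replicate 4 the log2 fold change of Sema6a was 0.17. The remaining semaphorins had log2 fold changes from −0.31 (Sema3e) to 0.51 (Sema3b).

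Of the 9 plexins, 5 had a log2 fold change above 0 (median 0.03, 1 higher and 0 lower at an unadjusted p below 0.05). Plxnb3, a receptor for Sema5a known from oligodendrocytes, lies on chromosome X from 73757090 to 73772514. The values were 38.4, 21.6, 23.6, 43.6 and 25.5 CPM in cocaine replicates 1 to 5 and 15.8, 18.6, 24.2, 18.8 and 21.6 CPM in saline replicates 1 to 5. Cocaine replicates 1 and 4 were far above the rest, replicate 5 lay just above the saline range, and replicates 2 and 3 lay within it. The means were 30.5 ± 9.82 and 19.8 ± 3.19 CPM (SD, n = 5), with log2 fold change 0.63 (SE 0.19, edgeR adjusted p 0.504). The fold change was 0.46 without cocaine replicate 4.

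The 8 oligodendrocyte markers are given beside Plxnb3. All 8 had a log2 fold change above 0 (median 0.69), 8 of them at an unadjusted p below 0.05 and 0 called, and their summed level was 3659 to 9848 CPM with cocaine and 3610 to 5194 CPM with saline, with none of the 8 at 0. Cocaine replicates 4 and 1 had sums of 7504 and 6491 CPM, while cocaine replicate 5 had the highest sum (9848 CPM) with Plxnb3 at 25.5 CPM. The part of oligodendrocyte content in the difference was not tested. The same 2 libraries, cocaine replicates 4 and 1, were highest for Sema4d, a transmembrane semaphorin of oligodendrocytes (93.1 and 79.5 CPM, with 58.0 to 73.5 CPM elsewhere), and for the netrin receptor Unc5b (55.9 and 41.4 CPM, with 20.3 to 34.5 CPM elsewhere).

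Class A plexins, which pair with neuropilins or bind class 5 and 6 semaphorins, had 1 of 4 above 0. Plxna4 stood at 347 ± 98.8 CPM in cocaine against 411 ± 49.97 CPM in saline libraries (log2 fold change −0.24, SE 0.17) and Plxna2 at 107 ± 25.99 CPM in cocaine against 123 ± 10.6 CPM in saline libraries (log2 fold change −0.20, SE 0.14), with 4 cocaine libraries of Plxna2 below every saline library and cocaine replicate 2 above all. The size of both fold changes depended on single libraries. That of Plxna4 was −0.11 without cocaine replicate 5, −0.39 without cocaine replicate 2 and −0.055 without the 3 libraries highest in choroid plexus markers. That of Plxna2 was −0.098, −0.34 and −0.071 in the same order. Plxna3, the partner of neuropilin 2 in Sema3f signalling, had 30.5, 29.4, 24.7, 27.4 and 16.3 CPM in cocaine replicates 1 to 5 and 17.7, 21.1, 23.6, 23.9 and 19.8 CPM in saline replicates 1 to 5. All cocaine libraries but replicate 5 lay above every saline library, and replicate 5 lay below every one, with log2 fold change 0.27 (SE 0.15) that was 0.40 without cocaine replicate 5. The co-receptors Nrp1 and Nrp2 stood at 64.3 ± 14.4 CPM in cocaine against 71.7 ± 14.4 CPM in saline libraries (log2 fold change −0.16, SE 0.16) and at 104 ± 19.9 CPM in cocaine against 121 ± 9.99 CPM in saline libraries (log2 fold change −0.21, SE 0.12). The log2 fold change of Nrp1 was 0.064 without the 3 libraries highest in choroid plexus markers, and from −0.29 (without cocaine replicate 2) to −0.060 (without saline replicate 1) when single libraries were left out, with −0.070 without cocaine replicate 5 and −0.24 without saline replicate 4. That of Nrp2 was −0.12 without cocaine replicate 5 and −0.13 without those 3 libraries. Plxnb1 and Plxnb2, receptors of class 4 semaphorins, varied little, with coefficients of variation of 4.97% and 8.13%.

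**Figure D3:**
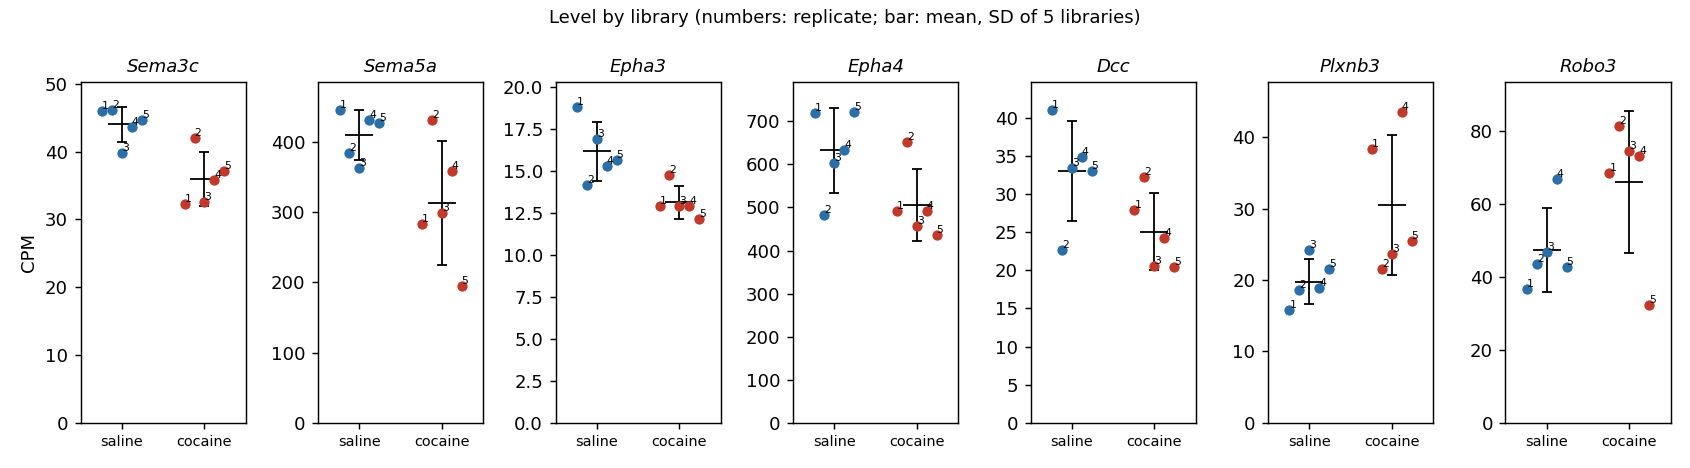
CPM in each library (points, numbered by replicate) with the mean and SD of 5 libraries, for the 7 axon guidance genes with an unadjusted edgeR p under 0.05. Cocaine replicate 2 is the highest cocaine library for Sema3c, Sema5a, Epha3, Epha4 and Dcc and lies within the saline range, and for Robo3 cocaine replicate 5 lies below every saline library.

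The 3 Slits, secreted ligands of the Robos, had log2 fold changes from −0.23 (Slit2) to −0.099 (Slit1), with 0 at an unadjusted p below 0.05. Slit1 stood at 292 ± 84.8 CPM (cocaine) and 312 ± 23.5 CPM (saline; SD, n = 5). Cocaine replicate 5 had 169 CPM and the other cocaine libraries 273 to 404 CPM, and without replicate 5 the log2 fold change of Slit1 was 0.045. Slit2 stood at 28.1 ± 5.34 CPM in cocaine against 33.1 ± 9.69 CPM in saline libraries (log2 fold change −0.23, SE 0.19). Its log2 fold change was −0.14 without cocaine replicate 3, −0.12 without saline replicate 3 and −0.35 without saline replicate 4.

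The 4 Robos split into 2 below 0 and 2 above. Robo3, a divergent Robo known for letting commissural axons cross the midline, lies on chromosome 9 from 37415669 to 37433246. The values were 68.6, 81.4, 74.7, 73.2 and 32.4 CPM in cocaine replicates 1 to 5 and 36.8, 43.6, 47.0, 66.9 and 42.8 CPM in saline replicates 1 to 5. All cocaine libraries but replicate 5 lay above every saline library, and replicate 5 lay below every one. The means were 66.1 ± 19.4 and 47.4 ± 11.5 CPM (SD, n = 5), with log2 fold change 0.48 (SE 0.22, edgeR adjusted p 0.556), and it was 0.65 without cocaine replicate 5 and 0.68 without the 3 libraries highest in choroid plexus markers. Robo1, a main Slit receptor, had 74.8, 73.7, 53.5, 56.3 and 52.4 CPM in cocaine replicates 1 to 5 and 90.6, 62.9, 82.9, 58.3 and 82.2 CPM in saline replicates 1 to 5, with log2 fold change −0.28 (SE 0.14). Robo2 stood at 124 ± 20.5 CPM in cocaine against 144 ± 13.2 CPM in saline libraries (log2 fold change −0.22, SE 0.11), and Robo4, known from endothelium, at 6.05 ± 0.840 CPM in cocaine against 4.90 ± 1.48 CPM in saline libraries (log2 fold change 0.30, SE 0.20). The summed endothelial markers were 145 to 236 CPM with cocaine and 169.9 to 217 CPM with saline, with 1 of 6 above a log2 fold change of 0.

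Of the 13 Eph receptors tested, 3 had a log2 fold change above 0 (median −0.15), with 0 higher and 2 lower at an unadjusted p below 0.05. Class A receptors, which mainly bind the lipid-anchored ephrins, had 2 of 8 above 0, and class B receptors, which bind transmembrane ephrins, 1 of 5. Epha3, on chromosome 16 from 63543534 to 63864175, showed the smallest p of the family. The values were 12.9, 14.8, 12.9, 12.9 and 12.2 CPM in cocaine replicates 1 to 5 and 18.8, 14.2, 16.9, 15.3 and 15.7 CPM in saline replicates 1 to 5. All cocaine libraries but replicate 2 lay below every saline library. The means were 13.1 ± 0.973 and 16.2 ± 1.76 CPM (SD, n = 5), with log2 fold change −0.30 (SE 0.10, edgeR adjusted p 0.504).

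Epha4, a receptor on neuronal spines that binds ephrins of both classes, lies on chromosome 1 from 77367185 to 77515088 and had the highest CPM of all 72 genes. The values were 492, 651, 457, 493 and 437 CPM in cocaine replicates 1 to 5 and 718, 483, 604, 634 and 722 CPM in saline replicates 1 to 5. Cocaine replicate 2 and saline replicate 2 each lay with the other group. The means were 506 ± 84.5 and 632 ± 98.0 CPM (SD, n = 5), with log2 fold change −0.32 (SE 0.13, edgeR adjusted p 0.525). Ephb2, which organises excitatory synapses, stood at 46.5 ± 5.80 CPM in cocaine against 52.5 ± 8.02 CPM in saline libraries (log2 fold change −0.18, SE 0.11). Its log2 fold change was −0.088 without saline replicate 1 and −0.086 without the 3 libraries highest in choroid plexus markers. The other tested Eph receptors had log2 fold changes from −0.46 (Epha2) to 0.21 (Epha10). Epha1 did not pass the low-count filter, with 0 to 34 counts per library, and its gene overlaps Zyx on the other strand at a mean of 48.9 CPM. In edgeR with no low-count filter its log2 fold change was 2.19 (unadjusted p 0.013, adjusted p 0.605). In DESeq2 it was 2.23 (unadjusted p 0.010, adjusted p 0.363). Both values rest on these few counts.

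The ephrins, ligands of these receptors, were above 0 in 7 of 8 (median 0.09, 0 at an unadjusted p below 0.05). Efnb3, known from the mossy fibre pathway, had 169, 183, 172, 229.6 and 173 CPM in cocaine replicates 1 to 5 and 164, 156, 155, 188 and 164 CPM in saline replicates 1 to 5. Cocaine replicate 4 was high and the other cocaine libraries lay within the saline range. That range reached 188 CPM through saline replicate 4 alone, and the other saline libraries lay below every cocaine library. The log2 fold change was 0.17 (SE 0.09), with 0.078 without cocaine replicate 4 and 0.21 without saline replicate 4. Efna3, the astrocyte ligand of Epha4 at spines, stood at 55.4 ± 5.58 CPM in cocaine against 54.0 ± 2.11 CPM in saline libraries (log2 fold change 0.036, SE 0.08). The other ephrins lay between −0.047 (Efnb1) and 0.35 (Efna4), the latter at 9 to 33 counts per library.

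Netrins and netrin-Gs had 1 of 6 above 0 (median −0.04), and 0 passed an unadjusted p under 0.05. Ntn1 stood at 8.18 ± 1.44 and 8.19 ± 0.741 CPM (SD, n = 5), a log2 fold change of −0.00079 (SE 0.13). Ntn3 shares its locus with Tbc1d24 on the same strand, at a mean of 85.5 CPM, so its counts are uncertain. Ntng1, which marks incoming axons such as those of thalamus, had 153, 79.4, 95.3, 118 and 94.7 CPM in cocaine replicates 1 to 5 and 77.5, 125, 116, 113 and 121 CPM in saline replicates 1 to 5. Its highest library, cocaine replicate 1, also had the highest summed thalamus markers (697 CPM, with 172 to 459 CPM elsewhere), and its low libraries, cocaine replicate 2 and saline replicate 1, had sums of 172 and 287 CPM. Cocaine replicate 5 had 94.7 CPM at a sum of 439 CPM. The log2 fold change of Ntng1 was −0.034, −0.19 without cocaine replicate 1 and −0.16 without the 3 libraries highest in choroid plexus markers. The part of thalamus RNA in this spread was not tested. Ntng2 stood at 49.6 ± 8.72 CPM in cocaine against 52.4 ± 7.35 CPM in saline libraries (log2 fold change −0.078, SE 0.13), and it overlaps 6530402F18Rik on the same strand, at a mean of 15.4 CPM.

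Netrin receptors had 1 of 6 above 0 (median −0.16), with 0 higher and 1 lower at an unadjusted p below 0.05. Dcc, the attractive netrin receptor, lies on chromosome 18 from 71253634 to 72351069. The values were 27.9, 32.2, 20.6, 24.2 and 20.5 CPM in cocaine replicates 1 to 5 and 41.0, 22.7, 33.4, 34.9 and 33.0 CPM in saline replicates 1 to 5. Saline replicate 2 lay within the cocaine range, and cocaine replicate 2 was the highest cocaine library. The means were 25.1 ± 5.04 and 33.0 ± 6.60 CPM (SD, n = 5), with log2 fold change −0.40 (SE 0.16, edgeR adjusted p 0.526). The repulsive receptors Unc5a and Unc5c stood at 179 ± 42.1 CPM in cocaine against 191 ± 25.8 CPM in saline libraries (log2 fold change −0.090, SE 0.15) and at 47.0 ± 8.40 CPM in cocaine against 54.9 ± 6.47 CPM in saline libraries (log2 fold change −0.22, SE 0.12). The log2 fold change of Unc5c was −0.14 without cocaine replicate 5. Unc5b was above 0, at 36.1 ± 13.5 CPM in cocaine against 26.4 ± 3.98 CPM in saline libraries (log2 fold change 0.45, SE 0.21). Neo1, which also reads repulsive guidance molecules, stood at 104 ± 10.2 CPM in cocaine against 108 ± 5.92 CPM in saline libraries (log2 fold change −0.060, SE 0.08) with a coefficient of variation of 7.74%.

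Another 48 genes of the pathway, intracellular partners and co-receptors of the same systems, were read from the same fit. All were tested and 0 were called. A log2 fold change above 0 was found for 16 of the 48 (33.3%, median −0.06), against 53.6% of all genes, a difference that was not tested. At an unadjusted p below 0.05, 1 was higher and 5 lower, 12.5% against 8.91% of all genes. The higher one was Cntn2, an adhesion molecule of axons and oligodendrocytes, at 147 ± 39.5 CPM (cocaine) and 112 ± 14.1 CPM (saline; SD, n = 5). The lower ones were Chl1, a relative of L1 that binds neuropilin 1, at a log2 fold change of −0.31 (SE 0.11), Flrt2, a ligand of Unc5 receptors, at −0.27 (SE 0.09), the kinase Pak3 at −0.25 (SE 0.10), Lrrc4, the netrin-G2 ligand, at −0.19 (SE 0.08), and Adam10, a protease that sheds ephrins, at −0.15 (SE 0.07).

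Cocaine replicate 5 also stood apart in the axon guidance genes. It was the lowest of the 10 libraries for 31 of the 71 genes (43.7%, against 24.8% of all genes) and the highest for 5 (7.04%, against 24.4%). Those 31 included 8 of 13 Eph receptors, 4 of 9 plexins, both neuropilins, 3 of 4 Robos and 4 of 6 netrin receptors, 2 of 3 Slits, 5 of 20 semaphorins, 2 of 8 ephrins and 1 of 6 netrins and netrin-Gs. Differences between families were not tested. Saline replicate 1 was the highest library for 16 genes (22.5%, against 11.96% of all genes). Without cocaine replicate 5 the receptors had 12 of 34 above 0 (median −0.09).

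**Figure D4:**
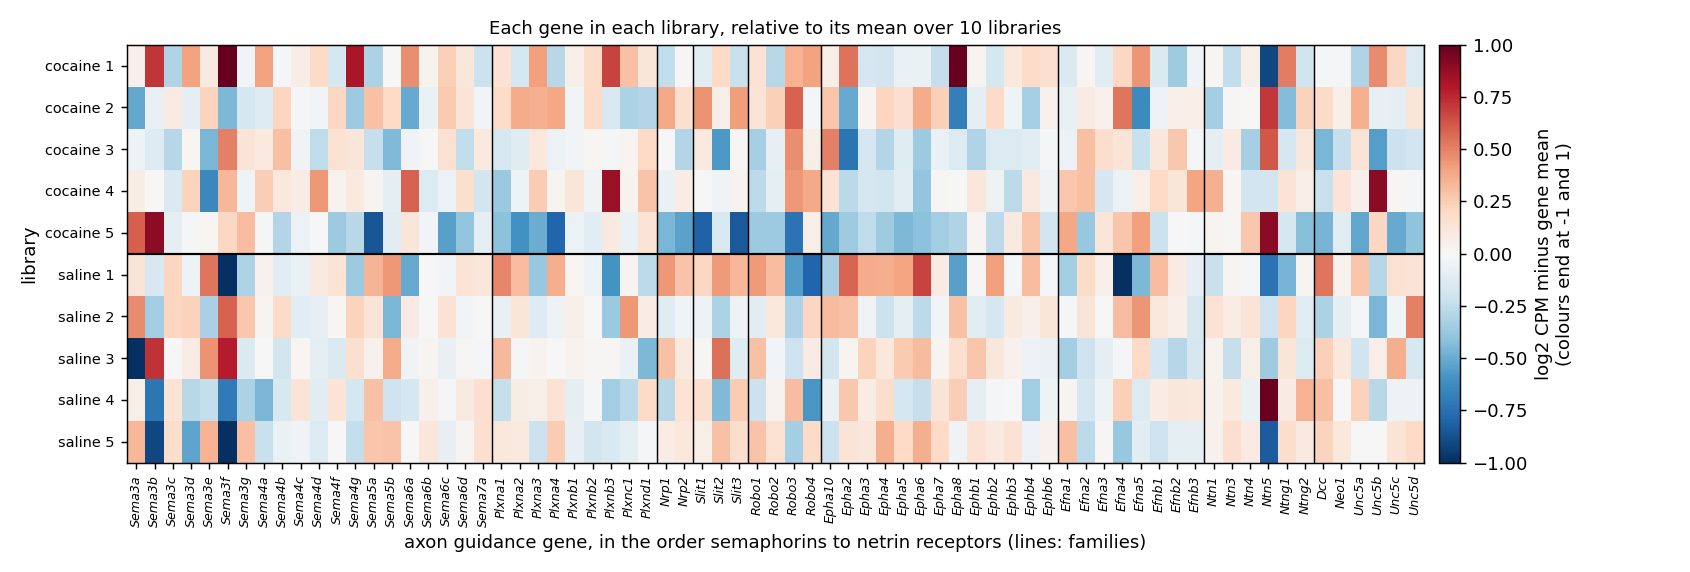
Log2 CPM of each tested axon guidance gene in each library minus the mean of that gene over 10 libraries, with genes in columns by family and libraries in rows. Cocaine replicate 5 is blue (lower) over Plxna1 to Plxna4, Slit1, Slit3 and Robo1 to Robo3, and saline replicate 1 is red (higher) over Epha2 to Epha6.

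Within the saline group, replicates 2 and 4 were the lowest for Robo1, Nrp1, Slit2, Sema3e, Sema5b and Epha6, a set chosen after its values were seen. The same held for Plxna1, Epha5, Ephb1, Ephb2, Unc5c and Neo1. The list may not be complete, and the share over all genes was not taken. Sema3e, a ligand of plexin D1, had 62.4, 34.5, 58.9, 36.5 and 54.9 CPM in saline replicates 1 to 5, and Epha6 had 63.7, 33.4, 49.9, 34.1 and 51.5 CPM. The summed markers of CA2 and CA3 pyramidal cells, the neighbours that mossy fibres contact, were 1965, 1352, 1507, 1425 and 1552 CPM in the same libraries, also lowest in replicates 2 and 4. Nptx1 made up most of that sum, at 1685, 1106, 1233, 1229 and 1272 CPM. Replicates 2 and 4 were the lowest for 3 of the 6 markers (Nptx1, Iyd and Bok) and not for the other 3, and Amigo2 was highest in replicate 2 (37.9 CPM, with 19.1 to 23.8 CPM in the other saline libraries). They ran from 1261 to 1722 CPM with cocaine and from 1352 to 1965 CPM with saline, with 3 of 6 markers above a log2 fold change of 0 and none at 0. Their part in the spread of these genes was not tested.

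**Figure D5:**
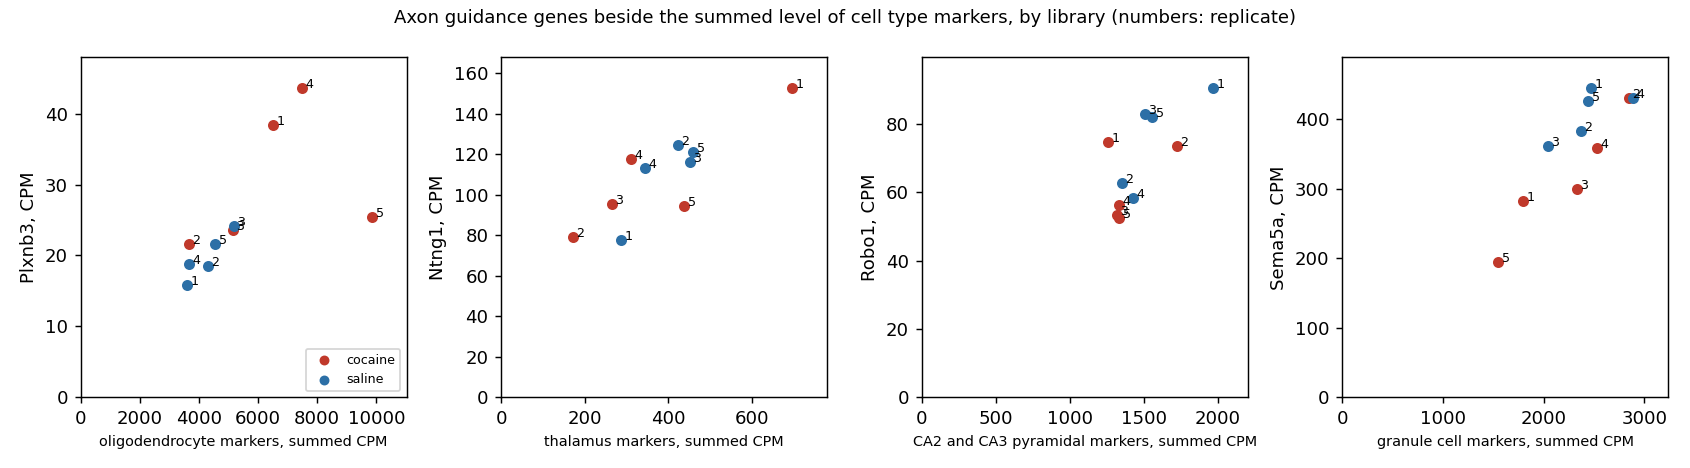
Level of Plxnb3, Ntng1, Robo1 and Sema5a in CPM against the summed CPM of oligodendrocyte, thalamus, CA2 and CA3 pyramidal and granule cell markers, 1 point per library numbered by replicate (red cocaine, blue saline). The genes were chosen after their values were seen; Plxnb3 in cocaine replicate 5 lies at 25.5 CPM despite the highest oligodendrocyte sum, and Sema5a is lowest where the granule cell sum is lowest.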

How the data were processed

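Raw counts for each Ensembl gene in 10 libraries were taken as the authors deposited them, with no normalization. Per the submitters' processing notes, cutadapt, STAR, Cufflinks, HTSeq and mm10 were used. Their versions, the annotation release, strand setting and filters: not given in the sources used here. Symbols, coordinates and exon lengths came from GENCODE M21 (mm10), which matched 49040 of 49315 identifiers. The other 275 held 0.0321% of counts and were tested without a symbol.

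Genes were tested on these counts with edgeR 4.0.16 in R 4.3.3: TMM factors, filterByExpr, quasi-likelihood F test, two-sided, Benjamini-Hochberg adjustment over 17080 genes, threshold 0.05. Standard errors are the log2 fold change divided by the square root of F. Levels are TMM-scaled CPM, and levels per kb divide by the union of exons. Replicates are numbered libraries of a group. Alternatives were RLE and upper-quartile factors, 2 other low-count filters, DESeq2 1.42.0, limma 3.58.1 voom with sample weights, a replicate block, and leaving out libraries. The fit was tested on simulated data.

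The genes, lists and tests were chosen with earlier results of these data known. Genes described singly are those with an unadjusted p under 0.05 or groups free of overlap, the highest per kb in each of 9 families, and a fixed list of 21; others named were chosen after their values were seen.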

Additional observations from a re-analysis of the deposited data

Results flagged for a closer look

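In 5 of 56 groups of 5 libraries, over 28 axon guidance genes in 2 groups, 1 library stood far from the other 4. The rule was a Dixon ratio (gap over range) above 0.71, which flags about 1 group in 20 of independent normal values. These genes share the same libraries and were partly chosen by their values, and no share over all genes was taken. The 5 can therefore not be read as an excess over chance. Robo3 had 32.4 CPM in cocaine replicate 5, with 68.6 to 81.4 CPM in the other cocaine libraries. Epha4 had 651 CPM in cocaine replicate 2, with 437 to 493 CPM in the others. Efnb3 had 229.6 CPM in cocaine replicate 4, with 169 to 183 CPM in the others, and 188 CPM in saline replicate 4, with 155 to 164 CPM in the others. Ntng1 had 77.5 CPM in saline replicate 1, with 113 to 125 CPM in the others.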

How the results depend on the processing

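No axon guidance gene was called under any of the 18 alternatives. Its smallest adjusted p ranged from 0.0556 (Robo3 without cocaine replicate 5) to 0.892. Over all genes, edgeR called 0, DESeq2 16 (0.054% of genes, 15 higher), voom with sample weights 95 (0.556%, 91 higher), and leaving out single libraries 0 to 129 (0.747% without cocaine replicate 5). Axon guidance genes at an unadjusted p under 0.05 numbered 7 of 71, or 13 of 72 with no low-count filter, 17 of 71 with voom and 3 to 19 of 71 when leaving out single libraries. Genes with groups free of overlap numbered 0 (1.38% of all genes) and 5 without cocaine replicate 2 (4.99%). Leaving out any other single library gave 0 to 3, and the share of all genes was not taken there. Without the 3 libraries highest in choroid plexus markers the number was 8 (10.7%).

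Of 28 genes described singly, 20 kept their direction under all 18 alternatives, among them the 7 at an unadjusted p under 0.05. Those 7 were picked by p in the main fit and the alternatives reuse its libraries, so a kept direction adds little. Their unadjusted p stayed under 0.05 in 18 alternatives for Sema3c and Plxnb3 and 17 for Epha3. It did so in 12 for Sema5a, Epha4 and Dcc, and in 10 for Robo3. Without the 3 libraries highest in choroid plexus markers, the log2 fold change turned to −0.40 for Sema3a, 0.064 for Nrp1, 0.10 for Slit1, 0.040 for Ntng2 and 0.058 for Unc5a. Ntn1 turned to 0.020 with upper-quartile factors, 0.0090 with a mean CPM of at least 1 and 0.051 with voom, and Efna3 to −0.010 with voom. Leaving out single libraries gave −0.18 to 0.13 for Sema3a, −0.24 to 0.045 for Slit1, −0.0059 to 0.080 for Efna3, −0.10 to 0.079 for Ntn1, −0.19 to 0.061 for Ntng1, −0.15 to 0.0062 for Ntng2 and −0.20 to 0.011 for Unc5a. The cause of these changes was not tested.

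The shared replicate numbers 1 to 5 are not said by the labels to pair libraries. Deviations of same-numbered libraries from their group means correlated at −0.285 to 0.0715, and no library correlated best with its own number. With the replicate block, 0 genes were called, 7 axon guidance genes had an unadjusted p under 0.05 and 30 a fold change above 1. Those 7 held Unc5d in place of Epha4. No share over all genes was taken with the block, so the 7 and the 30 have no background beside them. Depth limits the genes with few counts, such as Efna4 and Epha1.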
